A study of Mus musculus with 28 samples.

Results

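The change in the mRNAs brought down with tagged ribosomes from the mouse superior colliculus (SC) was followed from postnatal day 0.5 (P0.5), when retinal axons branch in their target, to P7.5, when their arbors are pruned. The members are the 3900 genes, of 23995 listed, that reached 1 FPKM in 2 or more of 4 Cre-positive SC libraries, 2 from each stage. FPKM is the number of sequenced fragments of a gene, scaled by its transcript length and by the fragments mapped in the library. The series holds 28 samples, of which 8 SC libraries carry the comparison and 4 P0.5 and P7.5 retina libraries stand beside it.

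All mice were C57BL/6 and carried the RiboTag allele, in which Cre recombination adds an HA tag to the ribosomal protein Rpl22. Cre-positive pups also carried Pax6-alpha-Cre, which is active for a short time in progenitors of the peripheral retina and leaves their descendants, among them retinal ganglion cells, tagged for life. Cre-negative pups were littermates without that transgene, and so show what the antibody brings down without a tag. The retina libraries came from the eyes of Cre-positive pups. Tissue from several pups was pooled for each immunoprecipitation, and each group had 2 libraries. Some label titles write P1 and P7 for the stages that the labels' age fields give as P0.5 and P7.5.

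Retinal ganglion cells send the only axons from the eye to the brain, and in mice most of them end in the SC. Their cell bodies lie far away in the retina, so ribosomes with the retinal tag that are recovered from the SC are taken to come from axons. A growing axon needs cytoskeleton, membrane and ATP at its tip, while pruning draws on local protein breakdown and on enzymes of the caspase family.

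The 8 libraries were of similar depth, with 6270000 to 11100000 fragments estimated from the smallest steps of the FPKM values, but they did not resemble each other evenly. P0.5 Cre-positive libraries held 4617 and 4921 genes above 0 FPKM, P7.5 Cre-positive libraries 3642 and 2930, and the Cre-negative libraries 2159 to 4006. Across the 3900 genes, the P0.5 Cre-positive replicates had r = 0.9 on log2(FPKM + 1), against 0.246 to 0.397 with the P7.5 Cre-positive libraries. P7.5 Cre-positive replicate 1 had r = 0.915 with P7.5 Cre-negative replicate 1 and 0.769 with its own replicate. P7.5 Cre-positive replicate 2 had r = 0.799 with P7.5 Cre-negative replicate 2. At P0.5, 2788 genes (71.5%) were higher in both Cre-positive than in both Cre-negative libraries and 293 (7.51%) lower, whereas at P7.5 only 205 (5.26%) were higher and 251 (6.44%) lower. These counts and r values cover genes chosen by Cre-positive FPKM, 2143 of them only through P0.5. A total of 1477 were listed at 0 in both P7.5 Cre-positive libraries and could not be higher with Cre there. The counts of the stages are therefore not on a like footing. The study, with another method on read counts, called Cre-dependent mRNAs at every stage. Over the genes chosen here, the P7.5 Cre-positive libraries stood little apart from untagged littermates, and "Cre-positive SC" is used in place of "axons".

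The gene that carries the tag gave no check of the labels, since Rpl22 was listed at 0 in all 8 SC libraries. Other genes that every cell uses were also listed at or near 0, so a value of 0 is a listing and not a measure of absence. Gapdh, a glycolytic enzyme, had 0.664 and 0.597 FPKM at P0.5 and 0 and 0 FPKM at P7.5 in Cre-positive SC and was at 0 in all 4 Cre-negative libraries. Ppia, a cytosolic chaperone, had 0 and 0.192 FPKM at P0.5 and 0 and 0 FPKM at P7.5 in Cre-positive SC. These genes were chosen after their values were seen.

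From P0.5 to P7.5, 2447 of the 3900 genes (62.7%) fell and 149 (3.82%) rose in Cre-positive SC. Both P7.5 libraries lay below both P0.5 libraries for 2845 genes (72.9%) and above them for 333 (8.54%). The median change was -2.82 on the log2(FPKM + 1) scale, on which all changes here are given with their standard error (SE). This scale understates the change of low genes. The entry rule bears on these counts, as 2143 genes passed it only through their P0.5 values and 142 only through their P7.5 values, and such genes had to differ. Among the other 1615 genes, 396 (24.5%) fell and 70 (4.33%) rose, with a median change of -1.11. Of the genes that fell, 1459 were listed at 0 in both P7.5 libraries, while 347 were above 0 in all 4. Calls are limma tests with Benjamini-Hochberg adjustment at 0.05, and with 2 libraries a group they measure the spread between pools. Without P0.5 Cre-positive replicate 1 or 2, the number of genes that rose was 50 or 51. Rescaling the libraries by the median ratio moved the median change to -2.37, with 2289 genes lower and 196 higher. In bulk tissue, fewer cells or axons of a type and less RNA in each cannot be told apart.

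In Cre-negative SC, 242 of the same 3900 genes (6.21%) fell and 88 (2.26%) rose, with a median change of 0.00. Both P7.5 libraries lay below both P0.5 libraries for 740 genes (19%) and above for 647 (16.6%). In the test of the difference between these changes, 1930 genes (49.5%) moved further down in Cre-positive SC and 34 (0.872%) further up. Since Cre-positive values alone chose the genes, and 943 of them were listed at 0 in all 4 Cre-negative libraries, these counts describe the chosen genes and do not compare the tissues as wholes. Among the 1615 genes that did not enter through 1 stage alone, 65 (4.02%) fell and 63 (3.9%) rose in Cre-negative SC, while 218 (13.5%) moved further down and 9 (0.557%) further up in Cre-positive SC. Retina was fitted apart, with 8 libraries of 4 stages that share 1 spread, and so not in the same form as SC. It had 0 calls in either direction between P0.5 and P7.5 by limma (0% and 0%), with 85 genes lower and 26 higher at an unadjusted p under 0.05. The P7.5 retina replicates had r = 0.721 and held 4310 and 8116 genes above 0 FPKM, so retina is not shown to be unchanged. In retina, 611 genes (15.7%) were lower in both P7.5 libraries and 421 (10.8%) higher.

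**Figure D1:**
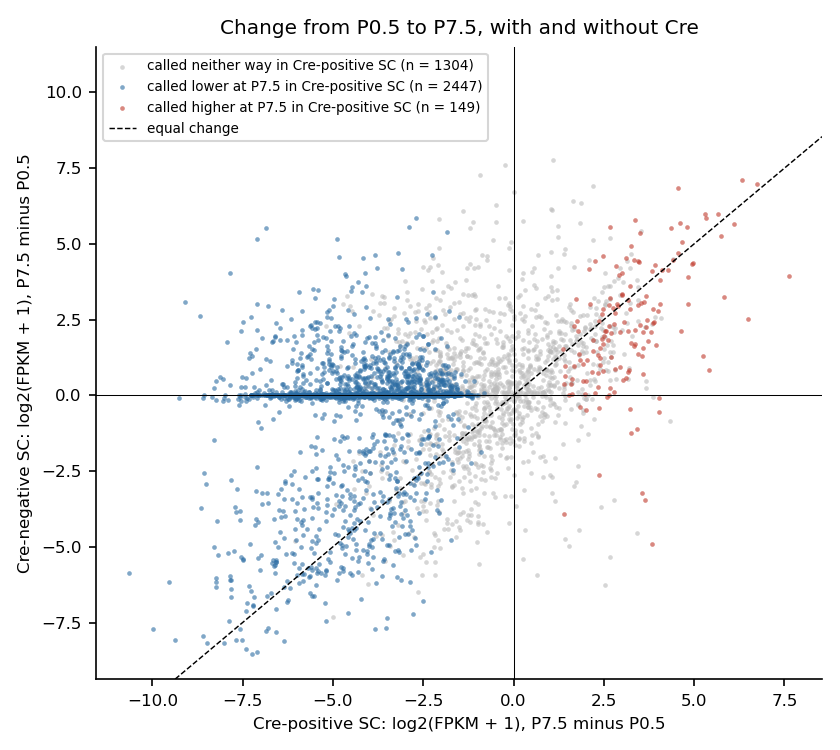
Each point is 1 of the 3900 genes, placed by its change from P0.5 to P7.5 in log2(FPKM + 1) in Cre-positive SC (x axis) and Cre-negative SC (y axis), each a difference of means of 2 libraries, and the dashed line marks equal change. The 2447 genes that fell in Cre-positive SC spread along a Cre-negative change of 0 and, for some, along the dashed line, while most of the 149 that rose lie above a Cre-negative change of 0.

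The largest single fall was in a gene of the cytoskeleton. Dbn1, which encodes the actin-binding protein drebrin (chr13:55473429-55488111, GRCm38), had 2508 and 1676 FPKM at P0.5 and 0.385 and 0.202 FPKM at P7.5 in Cre-positive SC (log2 change -10.63 ± 0.59, adjusted p = 4.92e-05). Both P0.5 libraries were high and both P7.5 libraries near 0. In Cre-negative SC it had 439.8 and 283 FPKM at P0.5 and 3.35 and 7.34 FPKM at P7.5, and its fall was larger in Cre-positive SC (difference -4.76 ± 0.83, adjusted p = 0.00506). With the E17.5 and adult libraries in the fit, 16 SC libraries in all, that difference was not called (adjusted p = 0.116). Gap43, a membrane protein of the growth cone, had 211 and 135 FPKM at P0.5 and 0 and 0 FPKM at P7.5 (log2 change -7.41 ± 0.55, adjusted p = 0.000105). It moved the same way without Cre, with 182 and 130.2 FPKM at P0.5 and 0.258 and 0 FPKM at P7.5 (difference -0.30 ± 0.77, adjusted p = 0.804). Myl12b, a myosin regulatory light chain, had 343 and 356 FPKM at P0.5 and 0.113 and 0.125 FPKM at P7.5 (log2 change -8.29 ± 0.53, adjusted p = 6.69e-05). Its Cre-negative values were 46 and 29.5 FPKM at P0.5 and 0.386 and 0 FPKM at P7.5, also a fall (adjusted p = 0.00635). The fall was larger in Cre-positive SC (difference -3.28 ± 0.75, adjusted p = 0.0138), but that difference was not called with 16 SC libraries (adjusted p = 0.554).

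Of the list of growth cone and axon outgrowth proteins, 22 of 27 tested members (81.5%, against 62.7% of all genes) fell and 0 rose, with a median change of -4.41, against -1.83 in Cre-negative SC. The list entered 10 members only through P0.5, and among the others 12 of 17 fell, where 24.5% of all such genes did. Stmn2, which encodes a microtubule-destabilizing stathmin, had 587 and 408 FPKM at P0.5 and 0.101 and 8.08 FPKM at P7.5 in Cre-positive SC (log2 change -7.28 ± 1.88, adjusted p = 0.0168). Its Cre-negative values were 0.257 and 0.0976 FPKM at P0.5 and 0.166 and 42.4 FPKM at P7.5, so that only the Cre-positive P0.5 libraries were high by both replicates. This call rested on both P0.5 libraries and on P7.5 replicate 1, with an adjusted p of 0.128, 0.108 and 0.0781 without them. Dpysl2, which encodes the tubulin-binding CRMP2, stayed among the most abundant mRNAs, with 13552 and 12634 FPKM at P0.5 and 4406 and 1021 FPKM at P7.5 (log2 change -2.62 ± 0.71, adjusted p = 0.0195). Its fall was not called without P0.5 Cre-positive replicate 1 or 2, at an adjusted p of 0.129 and 0.116, or under median-ratio scaling (0.109).

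Tubulins, the subunits of microtubules, fell in 9 of 10 tested members (90%, against 62.7% of all genes). Of the 10, 4 entered only through P0.5, and of the other 6, 5 fell, where 24.5% of all such genes did. The median change of the tubulins was -5.80 in Cre-positive SC and -3.52 in Cre-negative SC. Tubb3, the neuronal beta-tubulin, had 3059 and 1804 FPKM at P0.5 and 0.281 and 30.9 FPKM at P7.5, 156-fold lower by the means (log2 change -8.52 ± 1.49, adjusted p = 0.00382). Its Cre-negative values were 421 and 204 FPKM at P0.5 and 37.5 and 37 FPKM at P7.5. Without P0.5 Cre-positive replicate 1, the adjusted p of Tubb3 was 0.0523. Tubb4a, the member that did not pass, had 257 and 123 FPKM at P0.5 and 0.128 and 20.3 FPKM at P7.5 (adjusted p = 0.0641). Without P7.5 Cre-positive replicate 2 or P7.5 Cre-negative replicate 1 or 2, Tubb4a passed at 0.034, 0.0334 and 0.0328. Reads of tubulins and ribosomal proteins can be shared with near-identical copies, so single members of these families are uncertain.

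Actin genes did not move as one, with 20 of 30 tested members lower, close to the share of all genes, and 0 higher. Actb, which encodes beta-actin, was not tested, since some libraries, P0.5 Cre-positive replicate 2 among them, held no number for it. The abundant Rhoa, a small GTPase that acts on actin, had 797 and 1469 FPKM at P0.5 and 1484 and 824 FPKM at P7.5 (log2 change 0.03 ± 0.51, adjusted p = 0.962). Actr2, a subunit of the actin-nucleating Arp2/3 complex, had 1203 and 1207 FPKM at P0.5 and 2844 and 2280 FPKM at P7.5 (log2 change 1.08 ± 0.51, adjusted p = 0.115), where median-ratio scaling made a rise of it (adjusted p = 0.0271). Among neurofilaments and microtubule-associated proteins, 13 of 24 fell (54.2%, against 62.7% of all genes). Nefl, the light neurofilament subunit, had 47.5 and 17.54 FPKM at P0.5 and 0.143 and 0 FPKM at P7.5 (log2 change -4.81 ± 0.90, adjusted p = 0.00498). The 1 member that rose was Map7d2, a microtubule-binding protein, with 0.0794 and 2.01 FPKM at P0.5 and 4.25 and 10.2 FPKM at P7.5 (adjusted p = 0.0358). Without P0.5 replicate 1 or P7.5 replicate 2 of Cre-positive SC, or without P0.5 replicate 1 or 2 of Cre-negative SC, the adjusted p of Map7d2 was 0.126, 0.117, 0.0708 and 0.0694, and with 16 SC libraries 0.245. Here and in the lists below, the lone members that rose or missed the threshold were named after their values were seen.

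**Figure D2:**
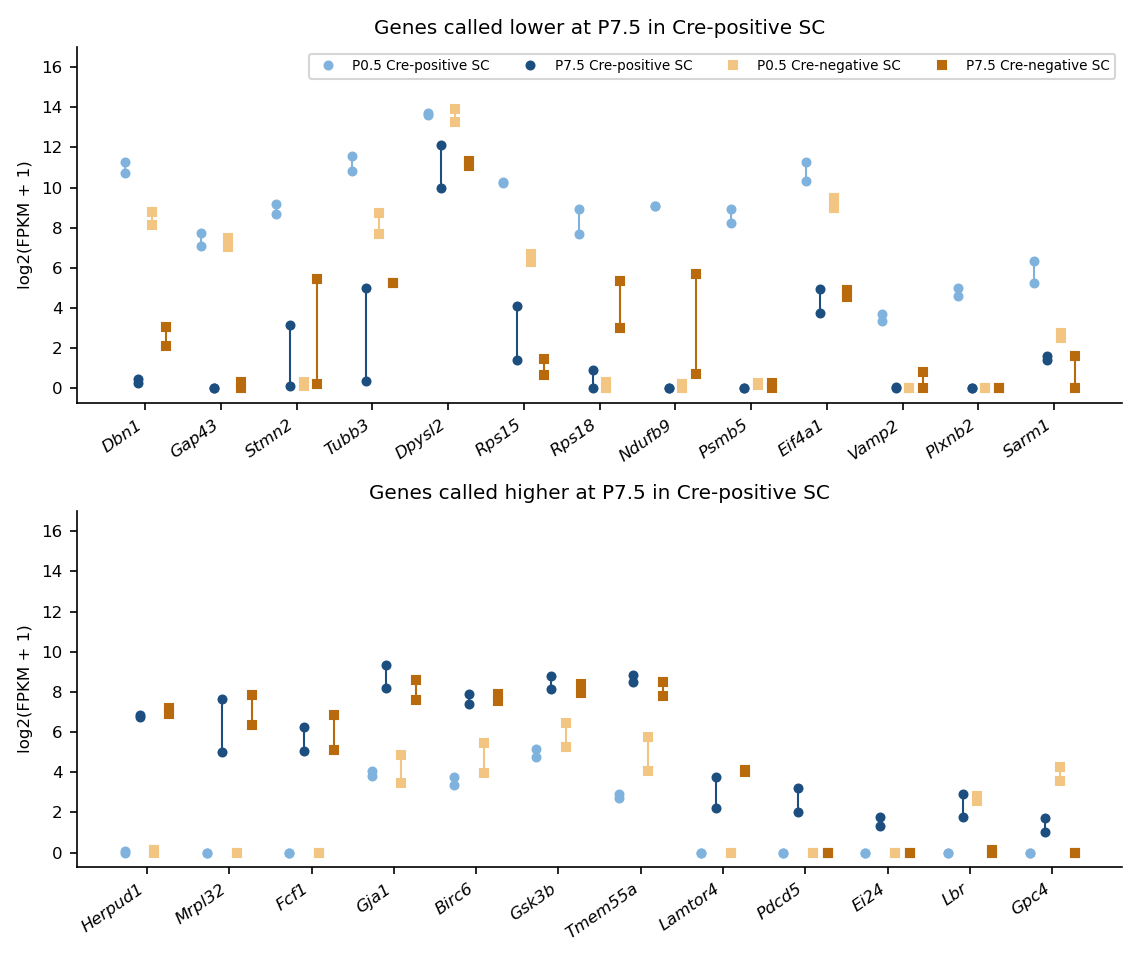
Values of genes described in the text, in log2(FPKM + 1) in each of the 8 SC libraries, where each marker is 1 library and a line joins the 2 replicates of a group (circles Cre-positive, squares Cre-negative, dark P7.5). Genes in the upper panel were called lower and those in the lower panel higher at P7.5 in Cre-positive SC, and for Herpud1, Mrpl32 and Fcf1 the Cre-negative libraries are also near 0 at P0.5 and high at P7.5.

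Genes of protein synthesis fell in large numbers. Cytosolic ribosomal proteins, the protein components of the ribosome itself, were lower for 47 of 54 tested members (87%, against 62.7% of all genes). Their median change was -5.16, against -0.09 in Cre-negative SC and -1.20 in retina. Of the 54, 28 entered only through P0.5, and of the other 26, 19 fell, where 24.5% of all such genes did. Rps15 had 1183 and 1246 FPKM at P0.5 and 1.7 and 16.1 FPKM at P7.5 (log2 change -7.48 ± 0.95, adjusted p = 0.00106). Cre-negative SC had 102 and 78.4 FPKM at P0.5 and 1.79 and 0.571 FPKM at P7.5, and the difference between the changes was not called (adjusted p = 0.274). Rps18 and Rpl7 went apart by Cre. Rps18 had 483 and 204 FPKM at P0.5 and 0 and 0.87 FPKM at P7.5 in Cre-positive SC, against 0 and 0.248 FPKM at P0.5 and 7.11 and 40.0 FPKM at P7.5 in Cre-negative SC (difference -11.88 ± 1.35, adjusted p = 0.00109). Rpl7 had 263 and 142 FPKM at P0.5 and 0 and 1 FPKM at P7.5 in Cre-positive SC, against 0 and 0 FPKM at P0.5 and 11.9 and 101 FPKM at P7.5 in Cre-negative SC (difference -12.27 ± 1.53, adjusted p = 0.00151). Not every abundant member moved, as Rps3 had 665 and 559 FPKM at P0.5 and 182 and 643 FPKM at P7.5 (log2 change -0.83 ± 0.74, adjusted p = 0.366).

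Translation factors, which start and drive the reading of mRNA, were lower for 27 of 36 tested members (75%, against 62.7% of all genes). Of the 36, 18 entered only through P0.5, and of the other 18, 9 fell, where 24.5% of all such genes did. Eif4a1, the RNA helicase of translation initiation, had 1297 and 2479 FPKM at P0.5 and 12.4 and 29.6 FPKM at P7.5 (log2 change -6.47 ± 0.62, adjusted p = 0.000317). Its fall in Cre-negative SC, with 501 and 724 FPKM at P0.5 and 22.3 and 28.5 FPKM at P7.5, was not shown to differ (adjusted p = 0.12). Eef1a1, an elongation factor, had 745 and 354 FPKM at P0.5 and 27.8 and 170.0 FPKM at P7.5 and did not pass the test (adjusted p = 0.128).

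Many mitochondrial genes encoded in the nucleus were also lower. Of the respiratory chain and ATP synthase, which make most of the ATP of an axon, 46 of 53 tested members fell and 1 rose. The share that fell was 86.8%, against 62.7% of all genes, with 32 members entering only through P0.5. Of the 19 that did not enter through 1 stage alone, 14 fell, where 24.5% of all such genes did. Ndufb9, a subunit of complex I (chr15:58933756-58939488), had 543 and 542 FPKM at P0.5 and 0 and 0 FPKM at P7.5 (log2 change -9.09 ± 1.57, adjusted p = 0.0036). Cre-negative SC had 0 and 0.18 FPKM at P0.5 and 0.635 and 51.8 FPKM at P7.5, and this difference of changes was among the largest measured (-12.18 ± 2.22, adjusted p = 0.00631), though not called with 16 SC libraries (adjusted p = 0.0618). Ndufb8 of the same complex had 766 and 684 FPKM at P0.5 and 0 and 0.211 FPKM at P7.5 in Cre-positive SC (log2 change -9.36 ± 0.49, adjusted p = 4.92e-05). It was also high without Cre at P0.5, with 285 and 254 FPKM at P0.5 and 0 and 0 FPKM at P7.5 (difference -1.29 ± 0.70, adjusted p = 0.184). Cox5a, the member that rose, had 0 and 0 FPKM at P0.5 and 5.91 and 15.8 FPKM at P7.5 (log2 change 3.43 ± 1.08, adjusted p = 0.0334). The Cox5a call was lost when any 1 was left out of the 4 Cre-positive or the 2 P0.5 Cre-negative libraries, at an adjusted p of 0.153, 0.148, 0.0514, 0.127, 0.0623 and 0.0617, and with 16 SC libraries (0.138). Mitochondrial ribosomal proteins were lower for 21 of 28 members (75%, against 62.7% of all genes), 18 of the 28 entering only through P0.5. Of the 9 that did not enter through 1 stage alone, 3 fell, where 24.5% of all such genes did. Mrpl43 had 141 and 113 FPKM at P0.5 and 0 and 0 FPKM at P7.5 and was at 0 in all 4 Cre-negative libraries (difference -6.99 ± 0.49, adjusted p = 0.000348).

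Of the proteasome, which degrades ubiquitin-tagged proteins, 30 of 31 tested subunits fell (96.8%, against 62.7% of all genes), 24 of the 31 entering only through P0.5. Of the other 7 subunits 6 fell, where 24.5% of all genes that did not enter through 1 stage alone did. Psmb5, a catalytic subunit (chr14:54614119-54618022), had 496 and 305 FPKM at P0.5 and 0 and 0 FPKM at P7.5 (log2 change -8.61 ± 0.47, adjusted p = 4.92e-05), while Cre-negative SC had 0.213 and 0.122 FPKM at P0.5 and 0.213 and 0 FPKM at P7.5 (difference -8.52 ± 0.67, adjusted p = 0.000348). Psmb4 had 775 and 626 FPKM at P0.5 and 3.56 and 0 FPKM at P7.5 (log2 change -8.35 ± 0.80, adjusted p = 0.000324). The 1 subunit that did not pass, Psma3, had 23.2 and 13.6 FPKM at P0.5 and 7.81 and 13.3 FPKM at P7.5. Ubiquitin-conjugating genes were lower for 26 of 41, near the share of all genes. Ubb, a polyubiquitin gene, had 434 and 216 FPKM at P0.5 and 0 and 0.38 FPKM at P7.5 (log2 change -8.03 ± 1.23, adjusted p = 0.00219). Rnf181, a ubiquitin ligase and the member that rose, had 0 and 0.181 FPKM at P0.5 and 20.9 and 77.7 FPKM at P7.5 (adjusted p = 0.00859). Without P0.5 Cre-positive replicate 1 or 2 that p was 0.0738 and 0.0652, and with 16 SC libraries 0.156. Chaperones, which fold proteins, were lower for 31 of 35 (88.6%, against 62.7% of all genes), 24 of the 35 entering only through P0.5. Of the 10 chaperones that did not enter through 1 stage alone, 7 fell, where 24.5% of all such genes did. Cct5, of the chaperonin that folds actin and tubulin, had 217 and 113 FPKM at P0.5 and 0 and 0 FPKM at P7.5 (log2 change -7.30 ± 0.54, adjusted p = 0.000109). In Cre-negative SC Cct5 fell as well, from 32.5 and 26.4 FPKM at P0.5 to 0 and 0 FPKM at P7.5 (difference -2.38 ± 0.77, adjusted p = 0.046). That difference was not called with 16 SC libraries (adjusted p = 0.549). Hspa2, the chaperone that rose, had 0 and 0.188 FPKM at P0.5 and 12.3 and 11.6 FPKM at P7.5, and leaving out any 1 Cre-positive library ended its call (adjusted p of 0.148 and 0.125 without a P0.5 library, 0.0786 and 0.0731 without a P7.5 library), as did the fit of 16 SC libraries (0.146).

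**Figure D3:**
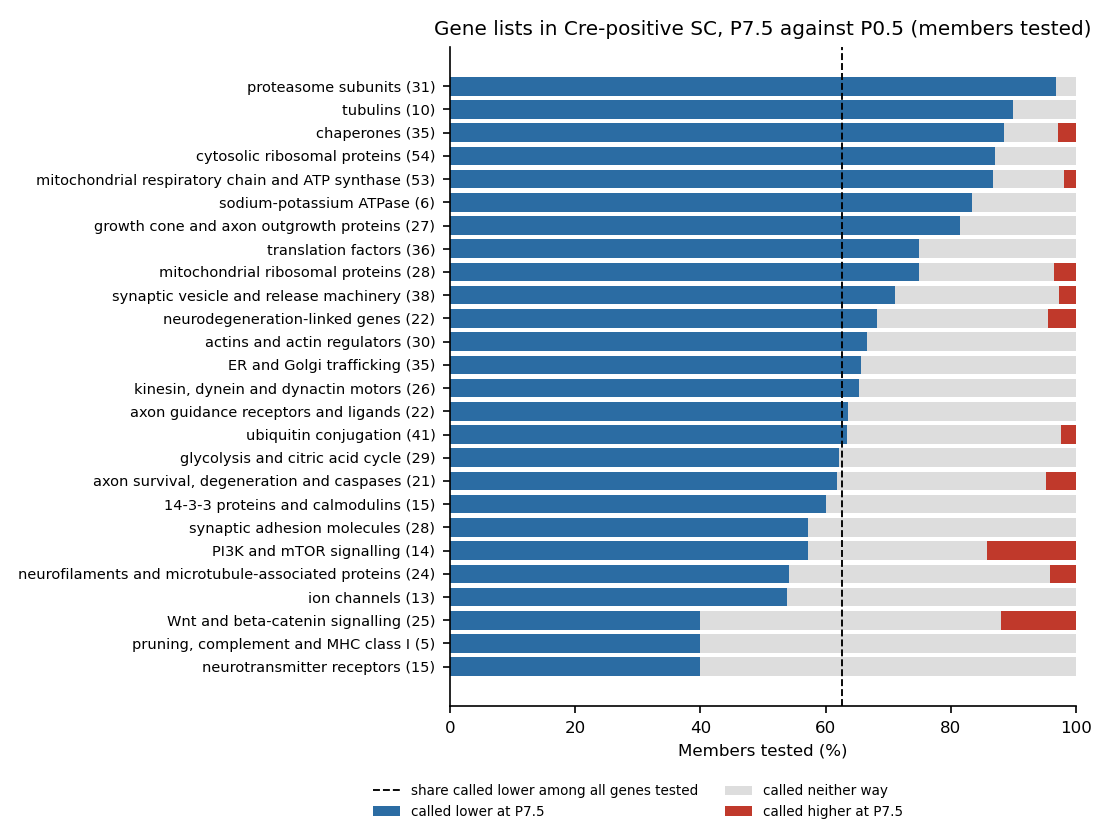
Bars give, for each gene list, the share in percent of its tested members (number in brackets) that were called lower, neither or higher at P7.5 in Cre-positive SC, and the dashed line marks the 62.7% called lower among all 3900 genes. Proteasome subunits, tubulins, chaperones, cytosolic ribosomal proteins and the respiratory chain lie furthest above the line, and the share includes members that entered only through P0.5.

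Of the synaptic vesicle and release machinery, 27 of 38 tested members fell (71.1%, against 62.7% of all genes), 22 of the 38 entering only through P0.5. Of the 15 members that did not enter through 1 stage alone, 5 fell, where 24.5% of all such genes did. Vamp2, the vesicle SNARE, had 12.3 and 9.3 FPKM at P0.5 and 0.0439 and 0 FPKM at P7.5 (log2 change -3.52 ± 0.34, adjusted p = 0.000328; difference -3.94 ± 0.48, adjusted p = 0.00135). Snap25, its partner at the plasma membrane, had 30.2 and 34.1 FPKM at P0.5 and 28.6 and 152 FPKM at P7.5 (log2 change 1.02 ± 0.85, adjusted p = 0.337). In Cre-negative SC, Snap25 had 0.152 and 0.39 FPKM at P0.5 and 91.1 and 85.3 FPKM at P7.5, a rise (log2 change 6.14 ± 0.85, adjusted p = 0.0135), and the changes differed (-5.11 ± 1.21, adjusted p = 0.0164). Without P7.5 Cre-positive replicate 1, Snap25 passed as a rise in Cre-positive SC at an adjusted p of 0.0278, and without replicate 2 its sign turned. The Snap25 difference was not called when any 1 of the 4 P0.5 SC libraries was left out (adjusted p = 0.0632, 0.0675, 0.0589 and 0.0514), nor with 16 SC libraries (0.0735). Vamp4, a SNARE of the Golgi and endosomes and the 1 member that rose, had 0 and 0 FPKM at P0.5 and 4.34 and 11 FPKM at P7.5, with Cre-negative values of 0 and 0 FPKM at P0.5 and 3.89 and 18.8 FPKM at P7.5. Its call (adjusted p = 0.0153) was lost without P0.5 replicate 1 or 2 or P7.5 replicate 2 of Cre-positive SC (0.103, 0.101 and 0.0643) and with 16 SC libraries (0.286).

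Of the axon guidance receptors and ligands, only 22 of 71 passed the entry rule, and 14 fell (63.6%, near the 62.7% of all genes), all but 1 of them among the 14 that entered only through P0.5. Plxnb2, a semaphorin receptor, had 30.5 and 23.1 FPKM at P0.5 and 0 and 0 FPKM at P7.5 and was at 0 in all 4 Cre-negative libraries (log2 change -4.79 ± 0.25, adjusted p = 4.92e-05). Sema6b, a transmembrane semaphorin, had 70.1 and 61.7 FPKM at P0.5 and 0.444 and 2.34 FPKM at P7.5 (log2 change -4.93 ± 0.62, adjusted p = 0.000916). Neurotransmitter receptors (6 of 15 lower, 40%) and ion channels (7 of 13, 53.8%) had few tested members, against 62.7% lower over all genes. Grin1, the obligatory subunit of NMDA receptors, had 12.1 and 12.8 FPKM at P0.5 and 0 and 0 FPKM at P7.5 (log2 change -3.74 ± 0.53, adjusted p = 0.00164). Grm2, a metabotropic glutamate receptor, had 17.6 and 9.69 FPKM at P0.5 and 0 and 0 FPKM at P7.5 (log2 change -3.82 ± 0.31, adjusted p = 0.000156). Kinesin, dynein and dynactin motors, which carry cargo along the axon, were lower for 17 of 26 (65.4%), near the share of all genes. Dctn3, a dynactin subunit, had 1318 and 1032 FPKM at P0.5 and 0 and 19.6 FPKM at P7.5 in Cre-positive SC (log2 change -8.01 ± 1.40, adjusted p = 0.00373). It fell without Cre as well, with 453 and 311 FPKM at P0.5 and 0.186 and 0.406 FPKM at P7.5 (difference 0.18 ± 1.97, adjusted p = 0.962).

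Of 21 tested genes of axon survival and degeneration, 13 fell (61.9%, near the 62.7% of all genes) and 1 rose, 11 entering only through P0.5. Sarm1, an NAD-cleaving enzyme that drives axon degeneration, had 79.9 and 36.6 FPKM at P0.5 and 2.04 and 1.67 FPKM at P7.5, 31.4-fold lower by the means (log2 change -4.28 ± 0.73, adjusted p = 0.00336). The Cre-negative values of Sarm1 were 4.74 and 5.82 FPKM at P0.5 and 2.04 and 0.0193 FPKM at P7.5 (difference -2.45 ± 1.03, adjusted p = 0.101). Nmnat2, the NAD-making enzyme that protects axons, had 44.1 and 18.5 FPKM at P0.5 and 10.3 and 37 FPKM at P7.5 and did not pass (log2 change -0.52 ± 1.22, adjusted p = 0.732). Bax, the pore-forming protein upstream of caspases, had 174 and 163 FPKM at P0.5 and 0 and 0.138 FPKM at P7.5 (log2 change -7.31 ± 0.92, adjusted p = 0.00102). Birc6, a large inhibitor of apoptosis proteins with ubiquitin-conjugating activity, was the 1 that rose, with 9.47 and 12.5 FPKM at P0.5 and 238 and 165 FPKM at P7.5 (log2 change 4.06 ± 0.65, adjusted p = 0.00253). Birc6 rose without Cre as well, with 14.7 and 42.4 FPKM at P0.5 and 188 and 234 FPKM at P7.5 (log2 change 3.01 ± 0.65, adjusted p = 0.0497; difference 1.05 ± 0.92, adjusted p = 0.41).

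Genes on other lists fell at shares from 40% to 83.3%, against 62.7% of all genes. Of the sodium-potassium ATPase and its regulators, which restore the ion gradients of the axon, 5 of 6 fell, 4 of the 6 entering only through P0.5. Fxyd7, a regulator of the pump, had 187 and 178 FPKM at P0.5 and 0 and 1.55 FPKM at P7.5 in Cre-positive SC, against 0 and 0 FPKM at P0.5 and 18 and 113 FPKM at P7.5 in Cre-negative SC (difference -12.38 ± 1.40, adjusted p = 0.00105). Both P7.5 Cre-negative values of Fxyd7 lay above both P0.5 values, the reverse of Cre-positive SC. Glycolysis and citric acid cycle genes fell in 18 of 29 (62.1%), ER and Golgi trafficking genes in 23 of 35 (65.7%) and 14-3-3 proteins and calmodulins in 9 of 15 (60%). Synaptic adhesion molecules fell in 16 of 28 (57.1%) and neurodegeneration-linked genes in 15 of 22 (68.2%), where 1 also rose. The shares of these lists, from glycolysis on, were near that of all genes. In the same order, 13, 20, 6, 14 and 11 members entered only through P0.5. Arf5, a GTPase of Golgi traffic, had 478 and 269.7 FPKM at P0.5 and 0 and 0 FPKM at P7.5 in Cre-positive SC, against 481 and 245 FPKM at P0.5 and 0.389 and 0 FPKM at P7.5 in Cre-negative SC (difference -0.30 ± 0.89, adjusted p = 0.83). Of 5 tested genes of pruning, complement and MHC class I, 2 fell (40%), both of which entered only through P0.5. Cx3cl1, a chemokine that neurons display to microglia, had 83.6 and 47.8 FPKM at P0.5 and 0 and 0 FPKM at P7.5 (log2 change -6.01 ± 0.54, adjusted p = 0.000245). Mef2c, a transcription factor that limits synapse number, had 22 and 10.7 FPKM at P0.5 and 0 and 0 FPKM at P7.5 (log2 change -4.04 ± 0.35, adjusted p = 0.000228).

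The study had named genes of these stages from these same libraries, so their values are no independent evidence of a direction. Of 29 such genes, 18 passed the entry rule, 9 of them only through P0.5. Of the 18, 12 fell (66.7%, near the 62.7% of all genes) and 0 rose. Prnp, the prion protein, had 73.8 and 28.1 FPKM at P0.5 and 0 and 0 FPKM at P7.5 (log2 change -5.55 ± 0.48, adjusted p = 0.000211). Htt, the huntingtin gene, had 6.1 and 1.72 FPKM at P0.5 and 0 and 0 FPKM at P7.5 (log2 change -2.14 ± 0.44, adjusted p = 0.007). Nrxn2, a presynaptic adhesion molecule, had 15.6 and 23.5 FPKM at P0.5 and 0.224 and 0.155 FPKM at P7.5 (log2 change -4.08 ± 0.40, adjusted p = 0.000302). Acot7, a neuronal acyl-CoA thioesterase, had 216 and 98.9 FPKM at P0.5 and 0 and 0 FPKM at P7.5 and was at 0 in all 4 Cre-negative libraries. Clta, a clathrin light chain, differed between the tissues in its change, with 57.3 and 39.1 FPKM at P0.5 and 17 and 9.24 FPKM at P7.5 in Cre-positive SC, against 0 and 0 FPKM at P0.5 and 51.8 and 32 FPKM at P7.5 in Cre-negative SC (difference -7.22 ± 0.84, adjusted p = 0.00107).

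Among the 149 genes that rose, most had the same course in untagged tissue. For 119 of them (79.9%) both P7.5 Cre-negative libraries also lay above both P0.5 libraries, against 16.6% of all genes, and for 6 they lay below. The median change of the 149 was 3.11 in Cre-positive and 2.14 in Cre-negative SC. These medians in Cre-positive SC only describe the choice of the genes. Herpud1, which acts in the breakdown of misfolded ER proteins (chr8:94386438-94395377), had 0 and 0.0649 FPKM at P0.5 and 115 and 105 FPKM at P7.5 in Cre-positive SC and 0 and 0.0995 FPKM at P0.5 and 120.1 and 144 FPKM at P7.5 in Cre-negative SC. Both groups rose (log2 change 6.75 ± 0.48, adjusted p = 9.61e-05 and 6.98 ± 0.48, adjusted p = 0.00409), and their difference was not called (-0.23 ± 0.69, adjusted p = 0.83). Fcf1, a factor in ribosome assembly, had 0 and 0 FPKM at P0.5 and 76.3 and 32.2 FPKM at P7.5 in Cre-positive SC, against 0 and 0 FPKM at P0.5 and 113 and 33.5 FPKM at P7.5 in Cre-negative SC (log2 change 5.66 ± 0.77, adjusted p = 0.0014). Mrpl32, the 1 mitochondrial ribosomal protein that rose, had 0 and 0 FPKM at P0.5 and 31.1 and 201 FPKM at P7.5 in Cre-positive SC, against 0 and 0 FPKM at P0.5 and 81.8 and 226 FPKM at P7.5 in Cre-negative SC (log2 change 6.33 ± 1.01, adjusted p = 0.00268). The Mrpl32 call was lost with 16 SC libraries (adjusted p = 0.0561).

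Gja1, which encodes the astrocyte gap junction protein connexin 43 (chr10:56377330-56402513), had 12.9 and 15.8 FPKM at P0.5 and 288 and 642 FPKM at P7.5, 32.5-fold higher by the means (log2 change 4.82 ± 0.74, adjusted p = 0.00227). Its Cre-negative values were 10.2 and 27.7 FPKM at P0.5 and 191 and 379 FPKM at P7.5 (log2 change 3.92 ± 0.74, adjusted p = 0.0336). Tmem55a, a phosphoinositide phosphatase, had 6.66 and 5.6 FPKM at P0.5 and 354 and 462 FPKM at P7.5 (log2 change 5.83 ± 0.70, adjusted p = 0.000841). Gsk3b, a kinase of Wnt signalling that also acts on microtubules, had 34.5 and 26.2 FPKM at P0.5 and 447 and 279 FPKM at P7.5, 12-fold higher by the means (log2 change 3.51 ± 0.60, adjusted p = 0.00322). With 16 SC libraries the adjusted p of Gsk3b was 0.0513. Gsk3b was 1 of 3 tested Wnt pathway genes that rose, the others being Wnt3 and Wnt5a, both ligands. Of the 25 tested, 10 were lower (40%, against 62.7% of all genes). Wnt3 had 0.348 and 0.188 FPKM at P0.5 and 4.83 and 15.3 FPKM at P7.5 and Wnt5a 0 and 0 FPKM at P0.5 and 2.81 and 9.93 FPKM at P7.5. The calls of these ligands (adjusted p = 0.0163 and 0.025) were lost without P0.5 Cre-positive replicate 1 (0.0925 and 0.149), P0.5 Cre-positive replicate 2 (0.104 and 0.144) or P7.5 Cre-positive replicate 2 (0.0558 and 0.103). With 16 SC libraries the adjusted p of Wnt3 was 0.105. Without a P0.5 Cre-negative library the adjusted p of Wnt5a was 0.0501 or 0.0504. In the list of PI3K and mTOR signalling, 8 of 14 fell (57.1%, against 62.7% of all genes) and 2 rose. Akt1s1, an inhibitory subunit of mTOR complex 1, had 82 and 52.2 FPKM at P0.5 and 0 and 0 FPKM at P7.5 (log2 change -6.05 ± 0.35, adjusted p = 5.1e-05). Lamtor4, of the complex that holds mTOR at the lysosome, rose, with 0 and 0 FPKM at P0.5 and 12.6 and 3.68 FPKM at P7.5 in Cre-positive SC, against 0 and 0 FPKM at P0.5 and 16 and 15.2 FPKM at P7.5 in Cre-negative SC, a call that was lost with 16 SC libraries (adjusted p = 0.247). Pik3ca, a catalytic subunit of PI3K, had 1.14 and 1.19 FPKM at P0.5 and 3.33 and 9.8 FPKM at P7.5 at an adjusted p of 0.0497, and leaving out any 1 of 7 SC libraries, all but P7.5 Cre-positive replicate 1, ended its call, at 0.168, 0.154, 0.134, 0.0677, 0.0607, 0.0596 and 0.0591, and so did the fit of 16 SC libraries (0.276).

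Of the 149 rising genes, 12 (8.05%) had a more positive change with Cre than without, against 0.872% of all tested genes. The rise that chose the 149 is part of that difference, so the share is a description. The 12 included 2 genes listed at 0 in Cre-negative SC at both stages. Pdcd5, a protein of apoptosis signalling (chr7:35641982-35647521), had 0 and 0 FPKM at P0.5 and 3.08 and 8.42 FPKM at P7.5 in Cre-positive SC and was at 0 in all 4 Cre-negative libraries (difference 2.63 ± 0.56, adjusted p = 0.0111). Its difference was lost without P0.5 Cre-positive replicate 1 or 2 (adjusted p = 0.0624 and 0.0622). Ei24, an ER membrane protein, had 0 and 0 FPKM at P0.5 and 1.49 and 2.43 FPKM at P7.5 (difference 1.55 ± 0.26, adjusted p = 0.00428), again at 0 in all 4 Cre-negative libraries. With 16 SC libraries neither rise was called (adjusted p = 0.214 for Pdcd5 and 0.298 for Ei24), nor either difference (0.467 and 0.562). Lbr, the lamin B receptor, had 0 and 0 FPKM at P0.5 and 2.44 and 6.64 FPKM at P7.5 in Cre-positive SC, against 6.13 and 4.93 FPKM at P0.5 and 0 and 0.0836 FPKM at P7.5 in Cre-negative SC (difference 5.002 ± 0.59, adjusted p = 0.00126). Gpc4, a heparan sulphate proteoglycan, had 0 and 0 FPKM at P0.5 and 1.06 and 2.31 FPKM at P7.5 in Cre-positive SC, against 10.7 and 18.4 FPKM at P0.5 and 0 and 0 FPKM at P7.5 in Cre-negative SC (difference 5.30 ± 0.54, adjusted p = 0.000685). The rise of Gpc4 in Cre-positive SC was itself lost without P0.5 replicate 1 or 2 or P7.5 replicate 2, at an adjusted p of 0.0929, 0.0886 and 0.0826. For Lbr and Gpc4 both Cre-negative P0.5 values were above both P7.5 values. Pdcd5, Ei24, Lbr and Gpc4 were chosen after their values were seen. Over all genes, the count of 34 with a more positive change in Cre-positive SC was 21 without P0.5 Cre-positive replicate 2, 22 without P0.5 Cre-negative replicate 1 and 76 without P7.5 Cre-positive replicate 1.

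Of the 2447 genes that fell, 1868 (76.3%) had a more negative change with Cre than without, against 49.5% of all tested genes, 571 showed no called difference and 8 had a more negative change without Cre. The fall that chose these genes is part of that difference, so the share is a description. In Cre-negative SC, 482 of the falling genes (19.7%) lay lower in both P7.5 libraries and 170 (6.95%) higher, against 19% and 16.6% of all genes. A total of 924 were listed at 0 in all 4 Cre-negative libraries. Pafah1b3, a catalytic subunit of a brain acetylhydrolase, had 653 and 572 FPKM at P0.5 and 0 and 0 FPKM at P7.5 in Cre-positive SC, against 0.214 and 0.123 FPKM at P0.5 and 0.213 and 0 FPKM at P7.5 in Cre-negative SC (difference -9.17 ± 0.62, adjusted p = 0.000348). Gna11, a G-protein alpha subunit, stood for the shared falls, with 1995 and 687 FPKM at P0.5 and 0.341 and 0 FPKM at P7.5 in Cre-positive SC, against 511 and 107 FPKM at P0.5 and 0.231 and 0 FPKM at P7.5 in Cre-negative SC (difference -2.25 ± 1.34, adjusted p = 0.227).

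**Figure D4:**
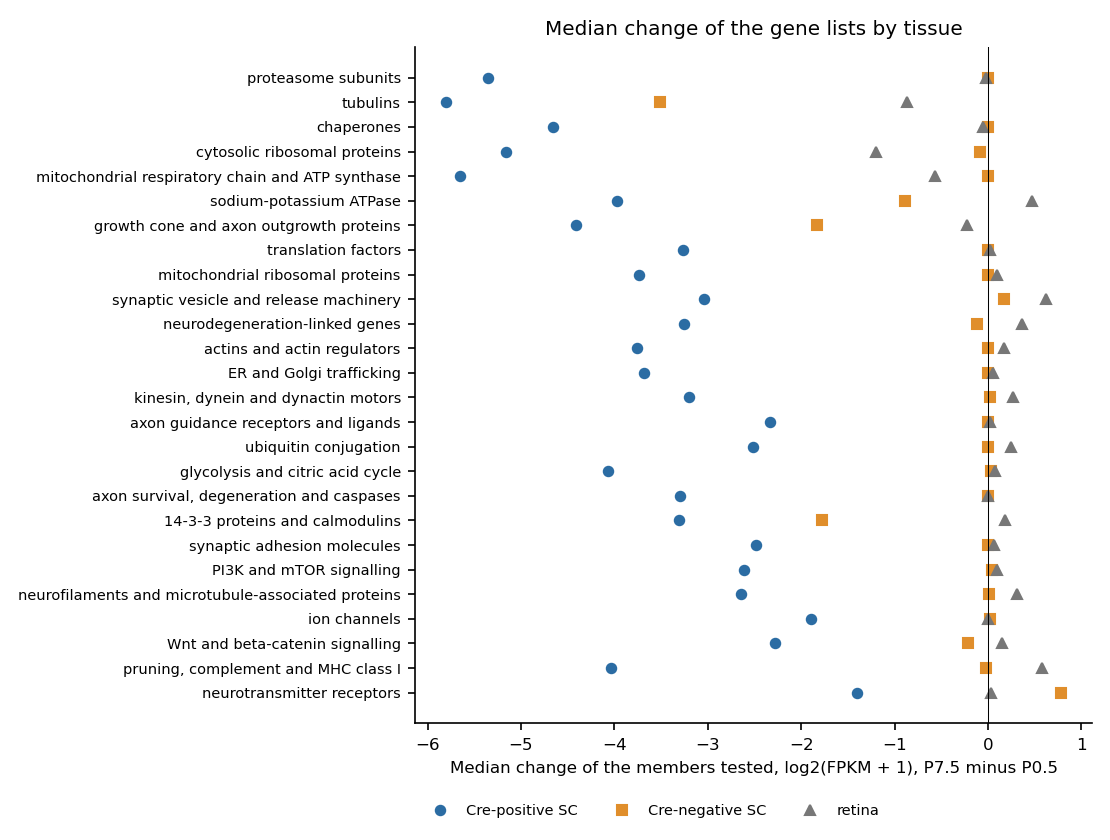
Markers give the median change from P0.5 to P7.5, in log2(FPKM + 1), over the tested members of each list in SC with Cre (circles), SC without Cre (squares) and retina (triangles), with the lists in the order of the plot of shares. Cre-positive medians run from -5.80 for tubulins to -1.40 for neurotransmitter receptors. Cre-negative medians of most lists lie close to 0. Those of tubulins, growth cone proteins, 14-3-3 proteins with calmodulins and the sodium-potassium ATPase lie lower, and that of neurotransmitter receptors lies higher, at 0.79.

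The same genes had values in other libraries of the series, which the entry rule did not use. The 2447 falling genes had a median of 23.3 and 12.5 FPKM in the P0.5 Cre-positive libraries and of 0 in both P7.5 and both adult ones. At E17.5, when axons grow in, their Cre-positive medians were 0 and 0.0216 FPKM. P0.5 retina, where the cell bodies of these axons lie, had medians of 0.265 and 0.178 FPKM for them, and 480 of the 2447 reached 1 FPKM in both P0.5 retina libraries. The 149 rising genes had medians of 0.198 and 0.351 FPKM at P0.5 and of 14.7 and 24.3 FPKM at P7.5 in Cre-positive SC, 7.79 and 27.1 FPKM at E17.5, and 16.9 and 0.634 FPKM in the adult. In Cre-negative SC the rising genes had medians of 8.14 and 28.2 FPKM at E17.5, 1.17 and 2.46 FPKM at P0.5 and 19.3 and 33.5 FPKM at P7.5, and of 6.1 and 0 FPKM in the adult. Both P0.5 medians were below those of E17.5 and P7.5 in either tissue, and 1 adult Cre-negative library was lower still.

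**Figure D5:**
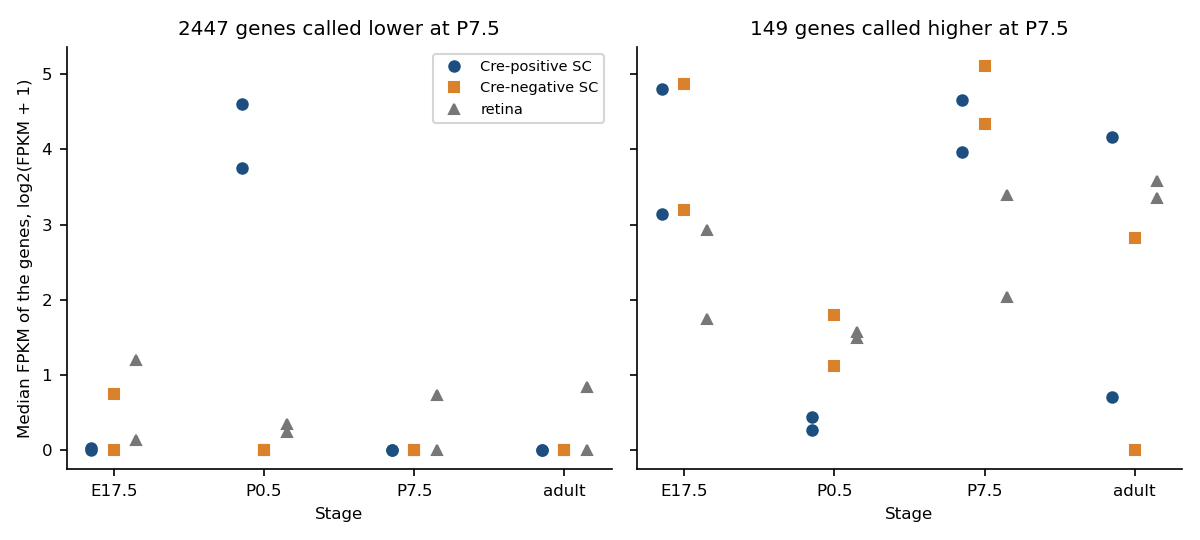
Median FPKM, as log2(FPKM + 1), of the 2447 genes that fell (left) and the 149 that rose (right) in each library by stage, with 1 marker per library. In Cre-positive SC the falling genes have medians of 23.3 and 12.5 FPKM at P0.5 and near 0 at the other stages, and the rising genes are lower at P0.5 than at E17.5 or P7.5 with and without Cre.

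The transcripts of the falling and rising genes differed in length and base composition, given as a description. The falling genes had a median transcript length of 1803 bases (quartiles 1008 and 3035) and the rising genes of 2551 (1372 and 4150), against 2024 over all tested genes with an annotation. Their median GC content was 53.6% and 48.7%, against 52.3% over all. The cDNA had been amplified by PCR from an oligo(dT) primer, and the part of length or GC content in these changes was not tested.

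Retina levels of some cytoskeletal and growth cone genes described above were as follows. Gap43 had 0.747 and 0.642 FPKM at P0.5 and 0 and 0.258 FPKM at P7.5 in retina, against 211 and 135 FPKM in P0.5 Cre-positive SC. Tubb3 had 26.5 and 13.9 FPKM at P0.5 and 0.412 and 12.4 FPKM at P7.5 in retina, and Dbn1 2.05 and 0.903 FPKM at P0.5 and 0.421 and 3.66 FPKM at P7.5. In these 3 both P0.5 retina libraries lay below both P0.5 Cre-positive SC libraries. Other genes of these groups did not share that order. Dpysl2 had 19872 and 12289 FPKM in P0.5 retina, against 13552 and 12634 FPKM in P0.5 Cre-positive SC. Rhoa had 3577 and 6136 FPKM and Actr2 2574 and 2920 FPKM in P0.5 retina, above both P0.5 Cre-positive SC libraries.

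Markers of other cells moved with the stages too. The 24 astrocyte markers summed to 4516 and 3355 FPKM in P0.5 Cre-positive and 515 and 1010 FPKM in P7.5 Cre-positive SC, and to 2386 and 1335 FPKM in P0.5 and 372 and 472 FPKM in P7.5 Cre-negative SC. Of the 15 tested, 7 fell (46.7%, against 62.7% of all genes) and 1, Gja1, rose, while Aqp4 and S100b were listed at 0 in all 8 SC libraries. Of the markers of neural progenitors and dividing cells, 6 of 6 tested genes fell (100%, against 62.7% of all genes), 3 of them entering only through P0.5. Nes, the progenitor filament nestin, had 28.8 and 14.7 FPKM at P0.5 and 0 and 0 FPKM at P7.5, and Pcna, of the replication fork, 21.7 and 8.06 FPKM at P0.5 and 0 and 0 FPKM at P7.5. Both were at 0 in both P7.5 libraries. Retinal ganglion cell markers summed to 1445 and 753 FPKM at P0.5 and 196 and 537 FPKM at P7.5 in Cre-positive SC. The highest member there was Stmn2 in both P0.5 libraries and Pou4f1 in both P7.5 libraries. Stmn2 and Gap43, which both enter the sum, are also growth cone genes described above, so the sum does not measure ganglion cells alone. Untagged tissue held sums in a similar range, with 1108 and 358 FPKM at P0.5 and 213 and 689 FPKM at P7.5. Of 10 tested ganglion cell markers, 6 fell (60%, near the 62.7% of all genes) and 0 rose in Cre-positive SC. Slc17a6, the glutamate transporter of these cells, had 12.2 and 5.13 FPKM at P0.5 and 0.127 and 0 FPKM at P7.5 (log2 change -3.08 ± 0.49, adjusted p = 0.00263). Of the 22 markers in the files, 8 were listed at 0 in all 8 SC libraries, among them Rbpms, a defining marker. Pou4f1, a transcription factor of retinal ganglion cells that midbrain neurons also express, had 231 and 86 FPKM at P0.5 and 175 and 457 FPKM at P7.5 in Cre-positive SC, against 705 and 191 FPKM at P0.5 and 191 and 582 FPKM at P7.5 in Cre-negative SC. Oligodendrocyte, blood vessel and collicular neuron lists had 3, 5 and 9 tested members, of which 1, 3 and 5 fell (33.3%, 60% and 55.6%). The 8 tested bipolar, amacrine and Mueller cell markers held 3 that fell (37.5%). For each of these lists the share of all genes to set beside it is 62.7%. Photoreceptor, lens and microglia markers had 0 tested members. The part of other cell types in the changes of Cre-positive SC was not tested.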

How the data were processed

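RNA bound by HA-tagged ribosomes was sequenced from pooled tissue. The authors deposited FPKM values per gene, made with TopHat2 (version 2.0.12) against mm10 and Cufflinks (version 2.2.1), and which sequencer read which library is not given in the sources used here. No replicate was pooled with another. Fragment numbers were estimated from the smallest FPKM steps. The 4 run-off samples were not used here, and 4 genes with an entry that was not a number were left out.

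Genes at 1 FPKM or more in 2 of the 4 Cre-positive SC libraries were kept. Values were tested as log2(FPKM + 1) with limma (version 3.58.1, R 4.3.3, statmod 1.5.0), trended and robust, over 8 SC libraries in 4 groups, and retina in a fit of its own. Each contrast was adjusted by Benjamini-Hochberg at 0.05. The code was tested on simulated data, with 200 of 3900 genes changed by 3 on the log2 scale in P7.5 Cre-positive SC. It called 17% of the 200, and 5.56% of its calls were false. A gene that was not called is therefore not shown to be unchanged. Named genes were the 8 largest calls in each direction, the 8 largest above 0 FPKM in all 4 libraries, the 5 largest differences by Cre, up to 4 of the highest members of each list with all calls of short lists, and genes the study named. The members and lists were chosen with earlier results of these data known. Coordinates are GENCODE M21 (GRCm38). Alternatives were pseudocounts of 0.1 and 5, no filter, genes above 0 at both stages, median-ratio scaling, all SC stages in one fit, only the Cre-negative libraries, a replicate block and leaving out each library.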

Additional observations from a re-analysis of the deposited data

Results flagged for a closer look

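The test of the difference between the Cre-positive and the Cre-negative change from P0.5 to P7.5 picked out 34 genes with a more positive and 1930 with a more negative change in Cre-positive SC. Among the largest in each direction, Fxyd7 differed by -12.38, with 187 and 178 FPKM at P0.5 and 0 and 1.55 FPKM at P7.5 in Cre-positive SC, against 0 and 0 FPKM at P0.5 and 18 and 113 FPKM at P7.5 in Cre-negative SC. Rpl7 differed by -12.27, Ndufb9 by -12.18 and Rps18 by -11.88, and each was low in Cre-negative SC at P0.5. Vps28, a component of endosomal sorting, differed by -11.30, with 652 and 468 FPKM at P0.5 and 0 and 0.807 FPKM at P7.5 in Cre-positive SC, against 0 and 0.36 FPKM at P0.5 and 0 and 50.1 FPKM at P7.5 in Cre-negative SC. That difference was lost without P0.5 replicate 1 or 2 of Cre-positive SC or P0.5 replicate 1 of Cre-negative SC, at an adjusted p of 0.0847, 0.0757 and 0.0527.

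In the other direction, Dbi, which encodes an acyl-CoA-binding protein, differed by 8.77, with 0 and 0 FPKM at P0.5 and 1.22 and 13.8 FPKM at P7.5 in Cre-positive SC, against 206 and 46.5 FPKM at P0.5 and 0.371 and 0.238 FPKM at P7.5 in Cre-negative SC. Nfil3, a transcription factor, differed by 8.75, with 0 and 0 FPKM at P0.5 and 3.12 and 47.9 FPKM at P7.5 in Cre-positive SC, against 83.4 and 16.7 FPKM at P0.5 and 0 and 0.624 FPKM at P7.5 in Cre-negative SC. Scamp4, a membrane carrier protein, differed by 7.998, with 0 and 0 FPKM at P0.5 and 1.55 and 14.7 FPKM at P7.5 in Cre-positive SC, against 131 and 87.1 FPKM at P0.5 and 4.78 and 0.233 FPKM at P7.5 in Cre-negative SC. Cryz, a quinone reductase, differed by 7.96, with 0.25 and 0 FPKM at P0.5 and 2.44 and 40.7 FPKM at P7.5 in Cre-positive SC, against 176 and 39.8 FPKM at P0.5 and 8.05 and 0.485 FPKM at P7.5 in Cre-negative SC. Chchd7, a mitochondrial protein (chr4:3938888-3951046, GRCm38), differed by 7.11, with 0 and 0 FPKM at P0.5 and 3.79 and 31.6 FPKM at P7.5 in Cre-positive SC, against 33.7 and 15.4 FPKM at P0.5 and 1.03 and 1.3 FPKM at P7.5 in Cre-negative SC. For all 5, both Cre-negative libraries of P7.5 lay below both of P0.5. Without P0.5 Cre-positive replicate 1 or 2 the differences of Nfil3, Scamp4 and Cryz were lost, at an adjusted p of 0.0729 and 0.0722 for Nfil3, 0.0552 and 0.0549 for Scamp4 and 0.12 and 0.129 for Cryz. Cryz was also lost without P7.5 Cre-positive replicate 2 or without P0.5 replicate 1 or P7.5 replicate 2 of Cre-negative SC (0.0535, 0.0907 and 0.0733). With all 16 SC libraries in the fit, the differences of Dbi, Chchd7, Cryz and Ndufb9 were not called (0.107, 0.107, 0.0653 and 0.0618), and with the replicate block that of Cryz was not (0.0584). The adjusted p-values are from limma.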

How the results depend on the processing

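In Cre-positive SC the fall stayed the larger count under every alternative run. With a pseudocount of 0.1 or 5, 144 or 53 genes rose in Cre-negative SC. With no filter, 122 genes had a more positive change in Cre-positive SC, 6 fell in retina and 622 had both P7.5 Cre-positive replicates above both P0.5 ones. Among the 2338 genes above 0 at both stages, 69 rose and 891 fell in Cre-positive SC, 128 fell in Cre-negative SC, 4 had a more positive and 520 a more negative change in Cre-positive SC, and 1368 had both P7.5 Cre-positive replicates below. The median Cre-positive change over those genes was -2.03. With all 16 SC libraries, 54 rose in Cre-positive SC, 3 rose and 96 fell in Cre-negative SC, and 13 had a more positive change with Cre. A fit of the 4 Cre-negative libraries alone called 0 and 0 by limma, with 62 higher and 171 lower at an unadjusted p under 0.05. The cause of these shifts was not tested.

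Leaving out 1 library gave 50 to 187 rises and 1949 to 2507 falls in Cre-positive SC, 5 to 196 rises and 94 to 235 falls in Cre-negative SC, 21 to 76 more positive and 1460 to 1823 more negative changes with Cre, and 0 in retina. Signs turned for uncalled genes. Nmnat2 had a change of 0.10 under median-ratio scaling and, leaving out 1 library, of -1.39 (without P7.5 Cre-positive replicate 2) to 0.36 (without P7.5 replicate 1). Rhoa ranged from -0.41 (without P0.5 replicate 1) to 0.47 (without P0.5 replicate 2), Rps3 from -1.735 to 0.077 and Snap25 from -0.16 to 2.21, the latter pairs without P7.5 replicate 1 or 2 of Cre-positive SC.

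With the replicate number as a block, the counts were 137 and 2428 in Cre-positive SC, 68 and 220 in Cre-negative SC and 0 in retina. For the difference by Cre, this block instead paired the Cre-positive and Cre-negative libraries of the same stage and number. Then 79 genes had a more positive and 2002 a more negative change with Cre. All these counts but the 79 moved by less than 1.5 times. The numbers did not pair the stages, as replicate differences had r = -0.282 between P0.5 and P7.5 Cre-positive SC and -0.318 in Cre-negative SC, against 0.462 and 0.393 between Cre-positive and Cre-negative SC of 1 stage. A block with crossed numbers, chosen after seeing the data, called 212 and 2523 in Cre-positive and 120 and 283 in Cre-negative SC. With 2 libraries a group, precision is limited by the spread between pools.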
